A study of Mus musculus with 5 samples.

Results

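The genes described here are 35 genes of MHC class I antigen presentation and of the interferon response, measured in mouse embryonic stem (ES) cells with and without induction of a Satb1 transgene. They were chosen by name, and a gene counted as measured where a probe set of the array carried its symbol and no other. Where a gene had several such probe sets, the brightest by its mean of 5 arrays was used. On this basis 31 of the 35 were measured, among 19938 genes on the array. H2-K1, H2-D1, H2-T23 and Isg15 had no probe set of their own, because each probe set that lists 1 of them lists another gene too.

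The cells carried tetO-Satb1, a Satb1 transgene under a promoter that the drug DOX (doxycycline) switches on, and were kept in serum medium with the cytokine LIF. The uninduced group, labelled control, had 2 arrays of cells without DOX. The induced group, labelled Satb1 overexpression, had 3 arrays of cells given DOX for 24 h, and RNA was prepared at 48 h from passaging in either group. Both groups carry the transgene, and there were no arrays of DOX-treated cells without it, so each difference is between cells with and without DOX. The labels do not say whether the numbered arrays are clones or separate cultures, so p-values measure only how these arrays vary, and that variation may be technical. The question is how Satb1 overexpression changes expression. Values are log2 levels made by the authors with RMA, and a change is the mean of the induced arrays minus the mean of the uninduced arrays.

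MHC class I molecules show peptides from inside the cell to T lymphocytes: the proteasome cuts proteins, the TAP transporter carries the peptides into the endoplasmic reticulum, and a heavy chain folds there around a peptide with beta-2-microglobulin. Interferons raise this whole route by binding cell-surface receptors that activate STAT proteins and IRF factors, which act on short promoter elements such as the ISRE. Pluripotent cells are known for low class I expression and a muted interferon response, and SATB1 is known to organise the MHC class I locus in T cells.

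The induced gene itself checks the labels. Satb1 read 4.95 and 5.34 without DOX and 8.61, 8.79 and 8.68 with DOX, 11.7-fold higher in induced cells, so the arrays separated as labelled. All 12 ES cell markers listed, such as Pou5f1, lay above the median level of all genes, 5.06, against 2 of 11 measured leukocyte markers. Of the 12, 8 had a lower mean after induction and 3 a higher mean, and 0 passed in limma. Tdgf1, a co-receptor for Nodal, read 11.24 and 11.29 without DOX and 11.07, 11.09 and 11.01 with DOX, a change of -0.21 (limma adjusted p = 0.770, unadjusted p = 0.0065). Klf4, a pluripotency factor, had -0.35 and Pou5f1 0.04 (limma adjusted p = 0.770 for both). Tdgf1 and Klf4, or 16.7% of the 12, were lower on every induced array, beside 3.08% of all genes. A value shared between the groups prevents such a separation. As 5 of the 12 but 9.03% of all genes had 5 distinct values, these shares are not a like comparison. Tdgf1 alone (8.33%) was lower at an unadjusted p under 0.05 in limma, beside 1.07% of all genes. The mean of the 12 was 8.65 and 8.69 without DOX and 8.65, 8.57 and 8.63 with DOX, lower on every induced array before rounding. Their median change was -0.006, so the markers did not fall as a group. The largest falls were in Klf4, Tdgf1 and Tbx3, the last at -0.11 with only induced array 2 off a shared value. The labels speak of irradiated feeder cells that were reduced by settling. The mean of 24 fibroblast markers, for feeder cells, was 5.474 and 5.482 without DOX and 5.495, 5.508 and 5.492 with DOX, so it was slightly higher on every induced array. The largest rises among the 24 were in Tagln (0.19) and Acta2 (0.18), while the median change was 0.006. Of the 24, 13 had a higher mean, 8 a lower mean and 3 the same, so the markers did not rise as a group. Of these 24, 15 lay above the median level of all genes, so a level above it was not particular to ES cell markers. Arrays correlated at Pearson's r of 0.9972 to 0.9979 across 19938 genes, which are not independent replicates.

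No member passed the test in either direction. In limma over all genes, 0 of the 31 were called at an adjusted p of 0.05 (adjusted p from 0.770 to 1), where 0.01% of all genes were called higher and 0.00502% lower. The adjusted test did not call the induced gene Satb1 either, at a log2 change of 3.55 (limma adjusted p = 0.229). The absence of a call therefore does not show that a gene was unchanged. Without adjustment, at p under 0.05, limma also called 0 members. Over all genes, 0.481% were higher and 1.07% lower by that rule. The deposited values hold many exact ties between arrays, which make the spread of a gene too small, so every test was repeated with a shared spread, in which limma's prior came only from genes with 5 distinct values. That setting called 0 members after adjustment, where 0.00502% of all genes were called, and before adjustment, at p under 0.05, it called 2 lower members, Ddx58 and Ifitm1, and 0 higher members. The share of all genes lower at that level was 0.772%, and the share higher was 0.301%.

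The members as a whole sat close to no change. Their median log2 change was -0.02, beside a median of 0 over all genes. The mean was lower after induction in 19 members (61.3%), higher in 9 (29.0%) and the same in 3, where over all genes 45.3% were lower, 39.6% higher and 15.1% the same. In 26 members the change was smaller than 0.1 on the log2 scale. The other 5 were all lower, namely Ddx58, Ifitm1, Psme2, Psme1 and Irf1. In 3 of these 5, Ddx58, Ifitm1 and Psme1, the 3 induced values were all under the uninduced values, which is 9.68% of the members beside 3.08% of all genes. In 0 members did all induced values lie above all uninduced values, beside 1.65% of all genes. A value shared by an induced and an uninduced array prevents such a separation. As 22.6% of the members but 9.03% of all genes had 5 distinct values, these shares are not a like comparison. With a shared spread, the 95% intervals of the 31 changes lay between -0.63, the lower bound of Psme2, and 0.31, the upper bound of Nlrc5, whose probe set stands apart from the gene's others. Without Nlrc5 the highest bound was 0.29, of Ifit2.

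**Figure D1:**
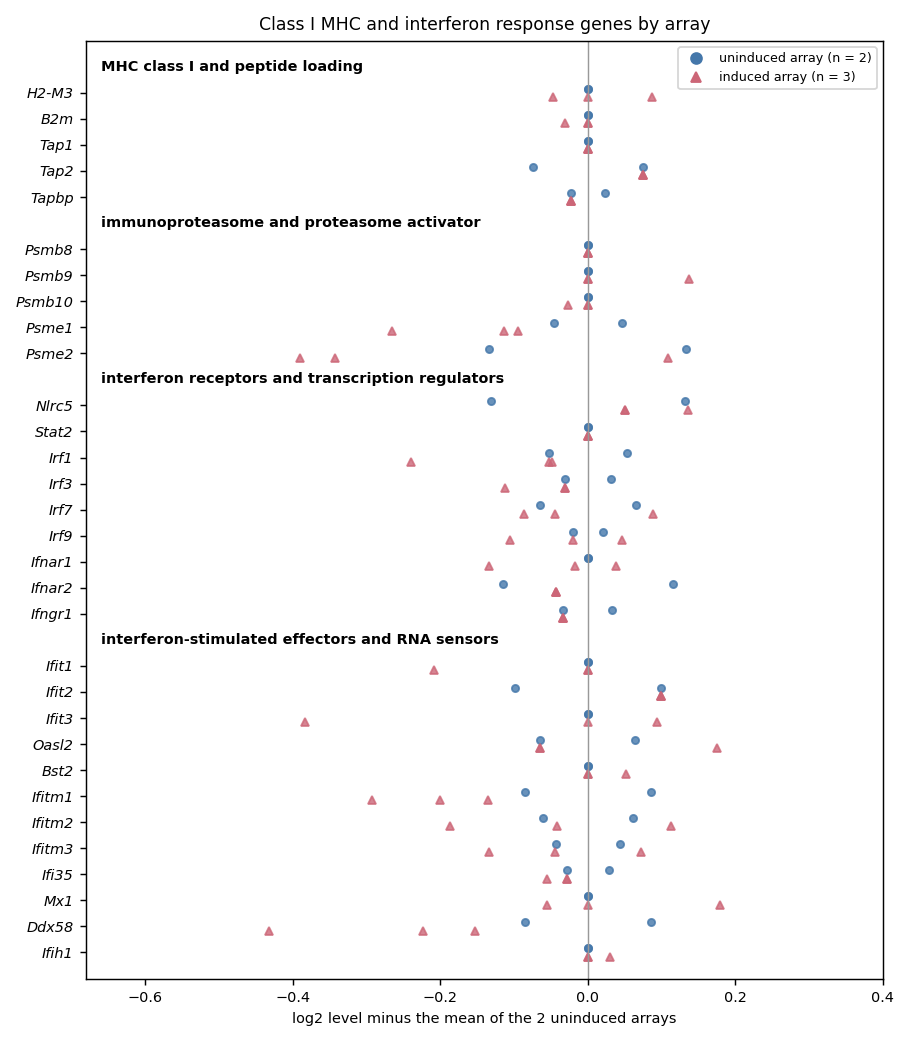
Log2 level of each of the 31 measured genes on each array, as the difference from the mean of the 2 uninduced arrays (x axis), with genes in rows by role. Circles are the 2 uninduced arrays and triangles the 3 induced arrays, and only in Ddx58, Ifitm1 and Psme1 do all triangles lie left of both circles.

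**Figure D2:**
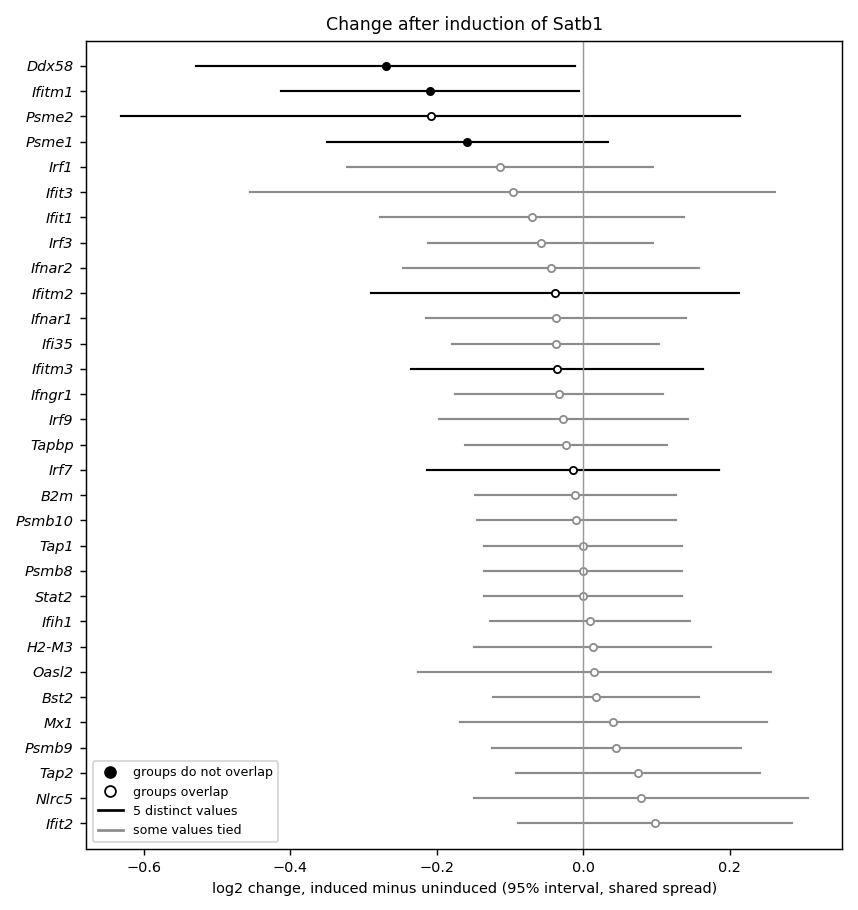
Log2 change of each measured gene, induced minus uninduced, with its 95% interval from the shared spread (x axis), ordered by size. Filled points mark the 3 genes whose groups do not overlap, grey lines mark genes with tied values, and 29 of the 31 intervals hold 0.

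Ddx58, which encodes the cytoplasmic RNA sensor RIG-I, had the largest change among the members. It read 6.73 and 6.90 without DOX and 6.59, 6.66 and 6.38 with DOX. All induced values were below both uninduced values, and induced array 3 was the lowest. The means were 6.81 ± 0.12 (SD, n = 2) and 6.54 ± 0.15 (SD, n = 3), a log2 change of -0.27 with a standard error of 0.12, or 1.21-fold lower. It did not pass in limma (adjusted p = 0.770), and with the shared spread the unadjusted p was 0.044, the adjusted p 1 and the 95% interval -0.53 to -0.01. The change lay between -0.36 and -0.18 with single arrays left out. With the mean of the fibroblast markers, which was higher on every induced array, as a covariate it was -0.58 (limma adjusted p = 0.788).

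Ifitm1 belongs to a family of interferon-induced membrane proteins that restrict the entry of viruses and that are expressed in ES cells and germ cells. It read 9.53 and 9.71 without DOX and 9.33, 9.42 and 9.48 with DOX, so the groups did not overlap, with a gap between the closest arrays smaller than the spread within either group. The means were 9.62 ± 0.12 (SD, n = 2) and 9.41 ± 0.08 (SD, n = 3). The log2 change of -0.21 had a standard error of 0.08, which is 1.16-fold lower (limma adjusted p = 0.770). With the shared spread its unadjusted p was 0.045, its adjusted p 1 and its 95% interval -0.41 to -0.01. Without uninduced array 2 the change was -0.12, and without uninduced array 1 it was -0.29. The mean of the 12 ES cell markers, given above, was lower on every induced array too, though their median change was -0.006. The part of that mean in the change of Ifitm1 and of the other lower members was not tested.

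A second probe set of Ifitm1, 10570434, also separated the groups. It read 8.63 and 8.74 without DOX and 8.50, 8.40 and 8.57 with DOX, a log2 change of -0.19 with a standard error of 0.07. Ifitm2, a close relative, had 3 probe sets. The probe set that stood for it, 10553299, had overlapping groups, at 8.74 and 8.86 against 8.76, 8.62 and 8.91, and a change of -0.04. Probe set 10569014 of the same gene read 8.16 and 8.27 against 8.06, 8.08 and 8.09, with every induced array lower and a change of -0.14, and probe set 10383756 had a change of -0.10 with overlapping groups. The measured change of Ifitm2 therefore varied with the probe set used.

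Ifitm3, the best known antiviral member of the family, read 9.88 and 9.96 without DOX and 9.79, 9.88 and 9.99 with DOX. Its groups overlapped and its change was -0.04. In all, 6 of 6 probe sets of Ifitm1, Ifitm2 and Ifitm3 had a lower mean after induction, beside 45.3% of all genes. In 3 of the 6 every induced array was lower, where 3.2% of the 21789 probe sets with 1 symbol had this. Each of the 6 had 5 distinct values, as did 9.03% of all genes, and ties prevent such a separation, so these shares are not a like comparison. None passed in limma over all those probe sets (adjusted p from 0.769 to 0.991 for Ifitm1 and Ifitm2). The 3 genes are close paralogs, so a probe set of 1 may also read RNA of another, and the probe sets are not independent of each other.

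**Figure D3:**
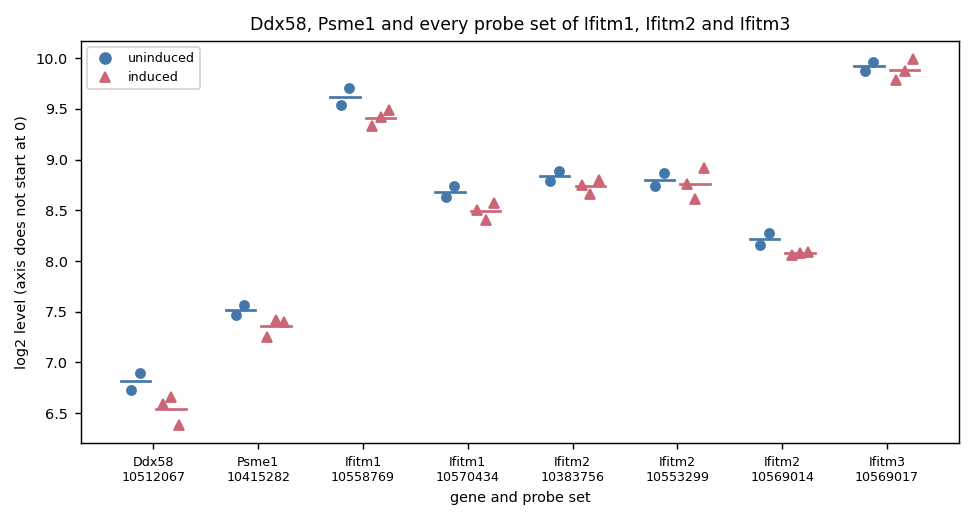
Log2 levels on each array (y axis, not starting at 0) for Ddx58, Psme1 and each probe set of Ifitm1, Ifitm2 and Ifitm3 (x axis). Circles are uninduced arrays, triangles are induced arrays and bars are group means. The groups separate in Ddx58, in Psme1, in both probe sets of Ifitm1 and in probe set 10569014 of Ifitm2.

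Psme1 and Psme2 encode the alpha and beta subunits of the PA28 proteasome activator, which opens the proteasome and raises the output of peptides for class I. Psme1 read 7.47 and 7.56 without DOX and 7.25, 7.42 and 7.40 with DOX, with no overlap and with induced array 1 the lowest. Its change was -0.16 with a standard error of 0.07, or 1.12-fold lower (limma adjusted p = 0.770), and it lay between -0.20 and -0.10 with single arrays left out. With the fibroblast mean, higher on every induced array, as a covariate the change was -0.29 (limma adjusted p = 0.788). Psme2 read 6.05 and 5.78 without DOX and 6.02, 5.57 and 5.52 with DOX. Its groups overlapped because induced array 1 lay with the uninduced arrays, and its change of -0.21 had a standard error of 0.21. With the fibroblast mean as a covariate it was 0.07 with a standard error of 0.45, so its direction was not settled.

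The inducible catalytic subunits of the immunoproteasome, which replace the constitutive ones and favour peptides that fit class I, showed little. Psmb8 read 4.21 on all 5 arrays. Psmb9 read 6.27 on every array except induced array 1, at 6.40, and Psmb10 read 5.24 on every array except induced array 3, at 5.21. Their changes were 0, 0.05 and -0.01, each set by at most 1 array.

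The class I genes with a probe set of their own were as even. B2m, the invariant light chain of all class I molecules, read 7.02 on every array except induced array 2, at 6.99, a change of -0.01 with a 95% interval (shared spread) of -0.15 to 0.13. H2-M3, a non-classical heavy chain that presents formylated peptides, read 4.83 on both uninduced arrays and 4.83, 4.78 and 4.92 with DOX. Tap1, a subunit of the peptide transporter, read 4.96 on all 5 arrays, and its partner Tap2 read 4.92 on every array except uninduced array 2, at 4.77. Tapbp, the tapasin that tethers class I to the transporter, read 6.41 on every array except uninduced array 2, at 6.46. The changes of H2-M3, Tap2 and Tapbp were 0.01, 0.07 and -0.02, and none passed (limma adjusted p = 1 for H2-M3 and 0.770 for Tap2 and Tapbp).

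The classical heavy chains could be read only through probe sets shared with other genes, so their values belong to no single gene. Probe set 10450075, which lists H2-K1, LOC547349 and H2-D1, read 6.24 and 6.42 without DOX and 6.24 on all 3 induced arrays, a change of -0.09. Probe set 10444780, which lists the same 3 symbols, read 5.42 and 5.38 against 5.47, 5.48 and 5.42, a change of 0.06. The probe sets thus had changes of opposite sign and overlapping groups. Probe set 10450682, listing H2-T-ps and H2-T23, had a change of 0.09, and probe set 10451287, listing Isg15 and Gm9706, had 0.07, both with overlapping groups. None of these 4 passed in limma over the 13768 probe sets without a single symbol (adjusted p = 0.909 for each).

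Interferon receptors and the factors downstream of them showed no call. Ifnar1, a chain of the type I interferon receptor, read 6.50 on both uninduced arrays and 6.36, 6.54 and 6.48 with DOX, a change of -0.04. Ifnar2, the other chain, read 4.84 and 5.07 against 4.91 on all 3 induced arrays, so the induced value lay between the uninduced ones. Ifngr1, the ligand-binding chain of the interferon gamma receptor, read 4.96 on every array except uninduced array 2, at 5.03.

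Stat2, which works with IRF9 in the complex that binds the ISRE, read 5.64 on all 5 arrays. Irf9, the DNA-binding partner in that complex, read 5.38 and 5.34 against 5.40, 5.34 and 5.25, a change of -0.03. Irf1, an activator of class I genes, read 5.57 and 5.47 against 5.47, 5.47 and 5.28, a change of -0.11 with a standard error of 0.08, and its second probe set had 0.02. Irf3, which RNA sensors activate, read 5.83 and 5.89 against 5.83, 5.83 and 5.75, a change of -0.06. Irf7, the amplifier of type I interferon production, had overlapping groups from 4.06 to 4.23 and a change of -0.01.

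Nlrc5 encodes the transactivator of class I promoters, and it had 19 probe sets with its symbol. The one that stood for it, 10574100, read 8.46 and 8.19 without DOX and 8.38, 8.38 and 8.46 with DOX, a change of 0.08. The means of its other 18 probe sets lay between 2.66 and 6.15, so 10574100 stands apart and may not report Nlrc5. Its change was -0.05 without uninduced array 2 and 0.21 without uninduced array 1. Without Nlrc5, 8 of 30 members had a higher and 19 a lower mean, with a median change of -0.025 (-0.023 with it). Across the 19, 15 had a higher mean after induction, 3 a lower mean and 1 the same, with a median change of 0.04. In 2 probe sets, 10574155 and 10574163, all induced values lay above all uninduced values, with changes of 0.10 and 0.03. That is 10.5% of the 19, beside 1.67% of the 21789 probe sets with 1 symbol, and the 15 with a higher mean are 78.9%, beside 39.6%. Probe sets of 1 gene are not independent of each other. None passed (lowest limma adjusted p = 0.769 over 21789 probe sets).

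**Figure D4:**
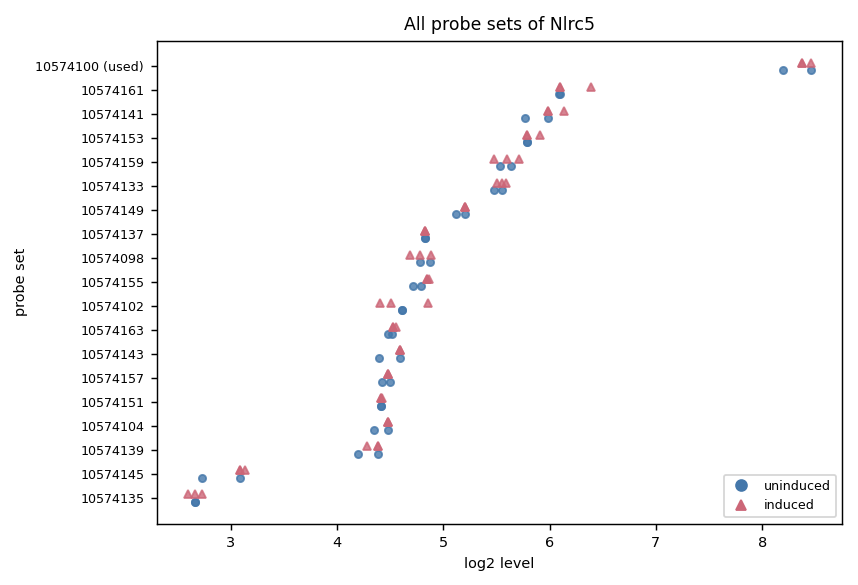
Log2 level (x axis) of each of the 19 probe sets of Nlrc5 (rows, ordered by uninduced mean) on the uninduced (circles) and induced (triangles) arrays. Probe set 10574100, used for the gene, stands apart from the other 18, whose means end at 6.15.

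In 4 of the 12 measured interferon-stimulated effectors and RNA sensors, Ifit1, Ifit2, Bst2 and Ifih1, a single array set the difference. Ifit1, which binds viral RNA ends, read 3.21 on every array except induced array 2, at 3.00. Ifit2 read 3.37 on every array except uninduced array 1, at 3.18, which gave the highest change among the members, 0.10. Ifit3 read 3.79 on both uninduced arrays and 3.79, 3.41 and 3.89 with DOX, a change of -0.10 with a standard error of 0.18. Mx1, a GTPase that blocks influenza viruses, read 2.94 on both uninduced arrays and 2.88, 3.11 and 2.94 with DOX.

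Oasl2, of the oligoadenylate synthetase-like family, read 4.85 and 4.72 against 4.72, 4.96 and 4.72. Bst2, or tetherin, which holds budding viruses at the membrane, read 6.33 on every array except induced array 2, at 6.38. Ifi35 read 5.29 and 5.24 against 5.24, 5.24 and 5.21, a change of -0.04. Ifih1, which encodes MDA5, the RNA sensor related to RIG-I, read 3.70 on every array except induced array 2, at 3.73. Its change of 0.01 stood beside the -0.27 of Ddx58, and the difference between the 2 sensors was not tested.

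Induced array 2 was the only array off a shared value in B2m, Ifit1, Bst2 and Ifih1, above it in Bst2 and Ifih1 and below it in B2m and Ifit1. Over the members, 10 had just 2 distinct values on 5 arrays, 8 (25.8%) had 1 value on all 3 induced arrays and 7 (22.6%) had 5 distinct values, where 28.9% and 9.03% of all genes did for the last 2 of these. The 3 members whose groups did not overlap were among the 7 with 5 distinct values, as were Psme2, Ifitm2, Ifitm3 and Irf7.

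Promoter sequence gives context for the 3 members whose groups did not overlap and for members of like function whose groups overlapped. The 28 members with a RefSeq promoter window (build GRCm38.p6, 250 bases before to 50 after the transcript start) were searched on both strands for the ISRE core, taken as GAAA, then any 2 bases, then GAAA. A match was in the window of 10 members (35.7%) and of 3.99% of all 27025 genes with a window. Interferon response genes were listed for their function, so this share describes the list and is no test. The stretches below run 5′ to 3′ along the transcribed strand, from 150 bases before the start to 30 bases after it, with ISRE core matches on either strand in capitals.
Ddx58, chr4:40239796-40239975, strand -: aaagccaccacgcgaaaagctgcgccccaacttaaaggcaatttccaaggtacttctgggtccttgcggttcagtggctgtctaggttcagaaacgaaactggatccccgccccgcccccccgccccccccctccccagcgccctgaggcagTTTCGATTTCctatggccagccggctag
Psme1, chr14:55578344-55578523, strand +: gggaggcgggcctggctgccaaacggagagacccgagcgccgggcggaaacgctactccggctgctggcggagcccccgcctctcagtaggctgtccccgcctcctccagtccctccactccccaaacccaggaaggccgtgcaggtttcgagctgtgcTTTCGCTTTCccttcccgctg
Ifitm1, chr7:140967926-140968105, strand +: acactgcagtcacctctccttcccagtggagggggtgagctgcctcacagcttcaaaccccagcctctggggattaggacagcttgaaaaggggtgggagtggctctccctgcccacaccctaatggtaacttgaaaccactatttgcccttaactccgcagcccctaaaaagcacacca
Ifitm3, chr7:141010715-141010894, strand -: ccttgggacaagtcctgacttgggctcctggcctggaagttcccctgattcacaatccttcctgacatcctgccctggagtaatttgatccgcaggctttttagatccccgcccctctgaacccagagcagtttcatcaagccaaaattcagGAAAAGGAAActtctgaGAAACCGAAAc
Ifit1, chr19:34640739-34640918, strand +: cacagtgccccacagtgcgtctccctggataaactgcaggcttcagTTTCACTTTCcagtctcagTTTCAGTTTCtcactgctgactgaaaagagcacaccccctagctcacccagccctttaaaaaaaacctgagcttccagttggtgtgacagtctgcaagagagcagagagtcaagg
B2m, chr2:122147537-122147716, strand +: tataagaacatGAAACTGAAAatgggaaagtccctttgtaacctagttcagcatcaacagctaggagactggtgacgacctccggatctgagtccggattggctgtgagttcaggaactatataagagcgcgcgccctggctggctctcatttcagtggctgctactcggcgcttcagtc

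Ddx58 and Psme1 each held 1 match just after the transcript start, beginning at base 3 and base 10 of the transcript, on the opposite strand to the gene. Ifitm1, the other member without overlap between the groups, held 0 matches in its window. Ifitm3 held 2 matches, at bases 3 and 20 of the transcript, Ifit1 held 2, at 104 and 85 bases before the start, and B2m held 1, at 139 bases before it, and in these 3 genes the groups overlapped. Matches were also in the windows of Ifitm2, Bst2, Stat2, Ifit3 and Ifih1. The GAS core TTCNNNGAA, an element for STAT dimers, was in the windows of 9 of the 28 members (32.1%) and of 9.55% of all genes. In Ifitm3 the GAS match overlaps the second ISRE match, and in Bst2 the ISRE matches overlap each other and the one farther from the start overlaps the GAS match. The CCAAT letters were in the windows of 11 members (39.3%) and of 41.1% of all genes.

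The MHC region was examined by gene order, because SATB1 is known for its part there in T cells. Of the measured members, Tap1, Tap2, Psmb8, Psmb9 and H2-M3 lie between H2-K1 and H2-M3 on chromosome 17 in the RefSeq gene table. Of 256 other genes in that interval, 142 were measured, and 0 passed in limma, with 1 higher gene and 2 lower genes before adjustment (p under 0.05). Their median change was 0. Those are 0.704% higher and 1.41% lower, near the 0.481% and 1.07% of all genes. In 4 of the 142 (2.82%) all induced values were below all uninduced values and in 1 (0.704%) all were above, beside 3.08% and 1.65% of all genes, so neither share exceeded the background. Zfp57, a zinc finger gene that maintains imprinted methylation, read 10.07 and 10.16 against 9.93, 9.93 and 9.94, a change of -0.18 with a standard error of 0.03. Vars, which encodes the valine tRNA synthetase, read 7.66 and 7.65 against 7.71, 7.69 and 7.69, a change of 0.04 with a standard error of 0.01. The class I-like gene H2-M10.4 read 4.93 and 4.88 against 4.67, 4.38 and 4.63, a change of -0.34 with a standard error of 0.11. Zfp57, Vars and H2-M10.4 did not pass (limma adjusted p = 0.770 for each). With the shared spread, at an unadjusted p under 0.05, 3 of the 142 were lower, namely Zfp57, H2-M10.4 and Ier3. That is a larger share than the 0.772% of all genes, while 0 were higher, beside 0.301%. After adjustment 0 of the 142 passed in that setting.

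Other genes of the same pathways, from lists of their own, gave no calls either. Of 20 measured genes of class I and peptide supply, 8 had a higher mean and 9 a lower mean, with a median change of 0. The chaperone gene Canx had -0.02 and the constitutive proteasome gene Psmb5, whose subunit Psmb8 replaces, had 0.08, both without overlap between groups. Of 26 measured interferon-stimulated genes, 14 had a higher and 8 a lower mean, with a median of 0.01. Eif2ak2, which encodes the RNA-dependent kinase PKR, read 5.64 and 5.90 against 5.54, 5.48 and 5.64, a change of -0.22 with a standard error of 0.11.

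Of 21 measured genes of interferon signalling, 7 had a higher and 9 a lower mean, with a median of 0. Pias1, a SUMO ligase that restrains interferon signalling, read 6.82 and 6.72 against 6.56, 6.62 and 6.62, a change of -0.17 with a standard error of 0.04. Socs3, a feedback inhibitor of cytokine receptors that LIF also induces, had -0.14, with every induced array lower. Ifnb1, the interferon beta gene, read 3.67 and 3.49 against 3.72, 3.72 and 3.93, a change of 0.21 with a standard error of 0.10 and every induced array higher. Of 12 measured genes of nucleic acid sensing, 2 had a higher and 5 a lower mean. Mavs, the adaptor that RIG-I and MDA5 both use, had -0.04. It read 6.2607 and 6.1937 against 6.1772, 6.1936 and 6.1936, so its groups separated only in the last decimal. Rela, an NF-kappaB subunit, also had -0.04, with overlapping groups. All of these had a limma adjusted p of 0.770, and in these 4 lists 0 genes passed. At an unadjusted p under 0.05, 1 of the 79 genes, Pias1, was lower, which is 1.27% beside 1.07% of all genes. All induced values were lower in 6 of the 79 (7.59%, beside 3.08% of all genes) and higher in 2 (2.53%, beside 1.65%). The 6 include near ties such as Mavs, because this rule takes no account of the size of the gap.

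The mean over all 31 members was 5.71 on both uninduced arrays and 5.68, 5.67 and 5.67 with DOX, while the fibroblast mean given above was slightly higher on all induced arrays. With that mean as a covariate the median change of the members was -0.03. Of the 24 fibroblast markers, 13 had a higher mean, 8 a lower mean and 3 the same, and 0 passed in limma, with 0 at an unadjusted p under 0.05. Fewer cells of a type and less RNA per cell cannot be told apart in these bulk samples. Without uninduced array 1 or 2, limma called 4 members (12.9%) and 2 members (6.45%), where it called 9.93% of all genes in each case. These fits rest on a lone uninduced array, assumed to vary like the induced arrays, whose ties make the spread small.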

How the data were processed

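RNA was measured on 5 arrays, 2 uninduced and 3 induced, grouped by the sample titles. The deposited values are on the log2 scale, for 35557 probe sets, and were made with RMA by the authors, per the submitters' processing notes. For the software, the grouping of probes and the build, the sources used here give nothing. Values ran from 0.789 to 13.1. Of the probe sets, 21789 had 1 symbol in the array's annotation, 1621 had several and 12147 were not listed, and no symbol was changed. Taking the probe set of highest mean per gene gave 19938 genes. No filter on low values was used, and depth has no counterpart on arrays, where their number limits the precision.

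Genes were tested with limma 3.58.1 (lmFit, eBayes) in R 4.3.3, two-sided, with p-values adjusted over all genes by Benjamini-Hochberg and called at 0.05. Limma was first tested on simulated data without tied values, unlike the deposited values, so that check does not cover the effect of ties. With 5 arrays the smallest p of an exact permutation test is 0.1, so none was run. The prior SD was 0.0050 over all genes and 0.086 over genes with 5 distinct values, the shared spread. Other settings covered the choice of probe set, low levels, scaling, the prior, ties, a replicate block, the fibroblast mean as a covariate, single arrays left out and the threshold. Members, gene lists, tests and alternatives were chosen with earlier results of these data known. Every member was named, and up to 3 genes of smallest p from each other list. The MHC region (142 genes measured) was taken from the RefSeq table of GRCm38.p6 by gene order. Promoter windows were found for 28 of the 31 members, not for Mx1, Nlrc5 and Tap2.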

Additional observations from a re-analysis of the deposited data

How the results depend on the processing

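Under 15 other settings and 2 chosen after seeing the data (every probe set with 1 symbol tested separately, and Nlrc5 left out), the counts of members called stayed at 0 higher and 0 lower, except with an uninduced array left out. Leaving out 1 array at a time gave 0 to 2 higher members and 0 to 3 lower members: without uninduced array 1, Tap2 was called higher and Tapbp, Ifnar2 and Ifngr1 lower, and without uninduced array 2, Ifnar2 and Ifit2 were called higher. Ifnar2 thus ran from -0.16 to 0.071 and reversed. All of these had 1 value on all 3 induced arrays. The median change of -0.023 was -0.036 for genes above the median level, -0.11 for genes untied within both groups, where 9 members were tested, and 0 with every probe set separate, where the 19 of Nlrc5 weigh most; leaving out 1 array gave values from -0.023 to -0.0090. Leaving out 1 array put the Satb1 change at 3.35 to 3.75. At 3.55 it passed with the shared spread (adjusted p = 0.0038) and with untied genes (0.00053), and not in the main test (0.229). Ddx58, Ifitm1 and Psme1 had a lower mean under 15 of 15 settings each and were called in 0. Their groups did not overlap, so leaving out 1 array could not reverse the sign. Settings that altered only the prior, the threshold or the genes tested left the change as it was. Much of this agreement was thus fixed in advance. Changes of members had the opposite sign, without passing, in 29 combinations of a member and a setting, 10 of them with the fibroblast covariate, and 28 of the 29 were smaller than 2 standard errors. The fit with the title number as a replicate block called 0 members, with a median of -0.023 and a Satb1 change of 3.56. Same-numbered arrays were not shown to be paired. What was left after removing group means correlated at -0.0063 and 0.0063. With 2 uninduced arrays their deviations mirror each other, so these values are not separate checks and cannot settle the pairing.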

Other observations

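MHC class II genes, which present peptides from outside the cell and belong to professional antigen-presenting cells, were measured in 11 of 12 listed genes. Of these, 5 had a higher mean after induction, 2 a lower mean and 4 the same, with a median change of 0. The levels ran from 2.95 to 5.78 on the log2 scale. H2-DMa had a change of 0.04 and H2-Eb1 0.02, and 0 passed in limma, with 0 at an unadjusted p under 0.05. Of 11 measured leukocyte markers, 8 had a higher mean and 3 a lower mean, where 39.6% of all genes were higher and 45.3% lower. Just 2 of the 11 lay above the median level of all genes, so most were read at low levels. The median change of the 11 was 0.02, with 0 calls in limma, also at an unadjusted p under 0.05. Nkg7, a cytotoxic granule gene, read 4.27 and 4.22 without DOX and 4.30, 4.28 and 4.28 with DOX, a change of 0.04.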
